A study of Mus musculus with 16 samples.

Results

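Acaca, Acacb, Mlycd, Ucp2 and Ucp3, the genes that make and break down malonyl-CoA and the uncoupling proteins found in heart, were followed in mouse hearts that lack carnitine palmitoyltransferase 2 (CPT2). They were taken by symbol from both deposited tables: 5 of the 14138 genes of the first table and 5 of the 17831 genes of the second. All 5 passed the filter on low counts in both tables. The first table holds 5 CPT2H-KO hearts, with CPT2 deleted in cardiomyocytes, and 5 wild type hearts. The second holds 3 CPT2/USP30 double KO hearts and 3 CPT2 single KO hearts. CPT2 is therefore deleted in both groups of the second table. USP30, which takes ubiquitin off outer mitochondrial membrane proteins and so opposes mitophagy, was removed with Myh6-Cre, which is active in cardiomyocytes, acting on floxed USP30 alleles. The labels give neither the promoter behind the CPT2 deletion nor age, sex or shared litters. Every p-value therefore measures the spread among these hearts only. Total RNA of heart tissue was sequenced, so all cell types in it contribute reads. The first comparison addresses what loss of long-chain fatty acid oxidation changes, and the second what removal of USP30 changes on that background.

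Malonyl-CoA is made from acetyl-CoA by the acetyl-CoA carboxylases, ACC1 in the cytosol (Acaca) and ACC2 at the outer mitochondrial membrane (Acacb), and is decarboxylated by malonyl-CoA decarboxylase (Mlycd). In heart, malonyl-CoA is known mainly as the inhibitor of carnitine palmitoyltransferase 1, the step before CPT2 in the entry of long-chain fatty acids into mitochondria, while in fat and liver it is also the building block of new fatty acids. Ucp2 and Ucp3 encode inner mitochondrial membrane carriers related to the brown fat uncoupling protein UCP1. Ucp3 is known from skeletal muscle, heart and brown fat as a target of fatty acid-activated nuclear receptors, and Ucp2 is expressed in many tissues, with macrophages among its best known sources.

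On GRCm38 (mm10) with GENCODE M21, all 5 genes lie on the plus strand: Acaca at chr11:84129672-84401651, Acacb at chr5:114146535-114250761, Mlycd at chr8:119394878-119411102, Ucp3 at chr7:100472990-100486432 and Ucp2 at chr7:100493337-100502020. Ucp3 and Ucp2 are direct neighbours, with 6904 bases and 0 annotated genes between them. Their promoters are shown because Ucp3 passed the test below and Ucp2 did not, while the difference between the 2 genes, tested as their ratio, did not pass. Each runs over 300 bases, 250 before and 50 after the transcription start, read from RefSeq on GRCm38.p6, plus strand, 5′ to 3′. Capitals mark AGGTCA, the half-site bound by many nuclear receptors.
Ucp3, chr7:100472741-100473040: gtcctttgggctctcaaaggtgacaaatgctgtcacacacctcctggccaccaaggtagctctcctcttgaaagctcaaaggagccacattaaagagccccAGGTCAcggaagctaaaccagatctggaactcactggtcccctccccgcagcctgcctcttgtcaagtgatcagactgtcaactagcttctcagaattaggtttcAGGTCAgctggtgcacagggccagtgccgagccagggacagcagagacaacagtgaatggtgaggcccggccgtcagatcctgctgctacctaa
Ucp2, chr7:100493108-100493407: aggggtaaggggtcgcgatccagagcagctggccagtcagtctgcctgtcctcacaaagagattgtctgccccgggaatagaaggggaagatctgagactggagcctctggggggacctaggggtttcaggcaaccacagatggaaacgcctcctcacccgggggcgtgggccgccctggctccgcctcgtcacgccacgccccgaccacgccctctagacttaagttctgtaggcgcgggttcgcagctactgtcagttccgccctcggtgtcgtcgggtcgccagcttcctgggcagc
The Ucp3 window holds 2 half-sites, beginning at -149 and -44 from the start, and the Ucp2 window holds 0. Of the 5 members only Ucp3 and Acacb had a match in their windows, Acacb 1 match on the reverse strand at 43 bases after the start. On either strand, 16.3% of the 32851 mouse promoters of the same length hold at least 1 such half-site. The repeat of the half-site after 1 base, DR1, was in none of the 5 windows and in 0.0396% of all promoters. G and C made up 55% of the Ucp3 window and 64.3% of the Ucp2 window, against a median of 52.7% over all promoters. For Acaca and Acacb the RefSeq start lies 65766 and 18983 bases downstream of the GENCODE gene start, so their windows describe one start among several. A match is a run of letters and was not tested as a binding site.

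The genes targeted in each comparison were checked first, in CPM, read counts scaled to a common library size and listed by replicate number. Cpt2 had 30.4, 42.0, 42.1, 42.8 and 44.9 CPM in CPT2H-KO hearts, against 86.9, 89.9, 85.5, 74.0 and 53.0 CPM in wild type hearts. Usp30 had 10.2, 10.4 and 7.43 CPM in double KO hearts, against 18.5, 23.0 and 21.8 CPM in single KO hearts. Neither pair of groups overlapped, and both genes were lower in the hearts labelled as lacking them.

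**Figure D1:**
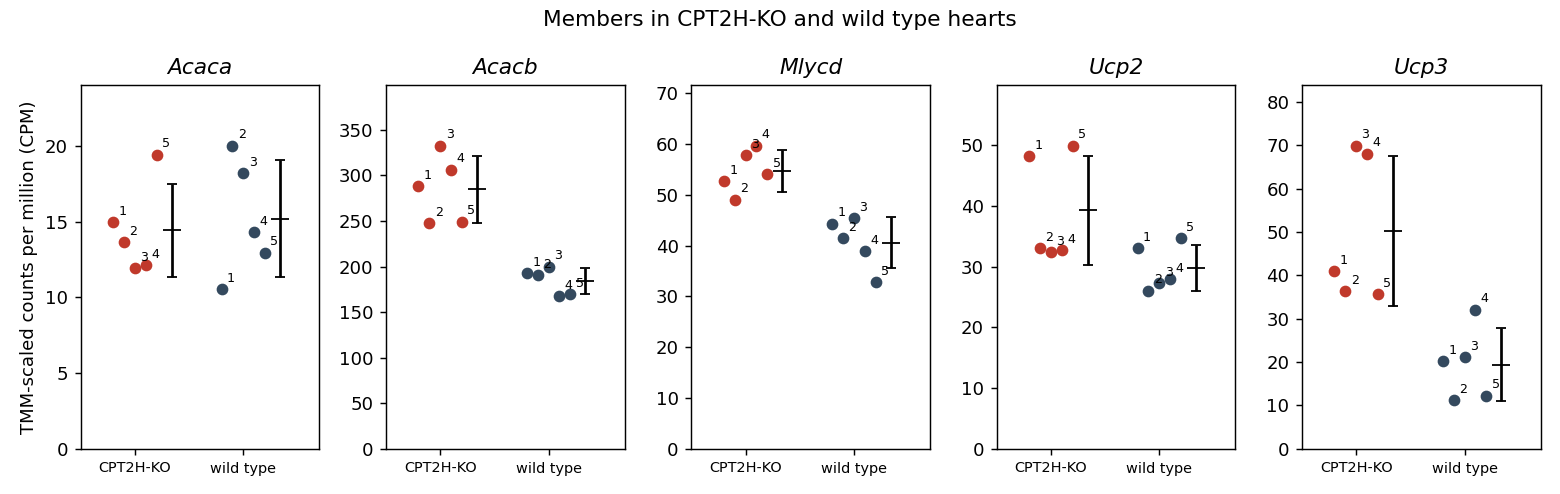
TMM-scaled CPM (axes starting at 0) of the 5 genes in CPT2H-KO and wild type hearts, 1 numbered point per library, with mean and SD (n = 5 each). All CPT2H-KO points of Acacb, Mlycd and Ucp3 lie above all wild type points, while those of Acaca and Ucp2 overlap.

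Acacb, Mlycd and Ucp3 rose in CPT2H-KO hearts, Ucp2 missed the threshold, and Acaca did not differ beyond its spread. The 3 that rose did so by 1.55-fold for Acacb, 1.35-fold for Mlycd and 2.58-fold for Ucp3. These 3 of 5 members passed an adjusted p of 0.05, all upward, where 33.7% of the 14123 genes tested passed in either direction and 16.7% upward. The same 3 members had groups that did not overlap, against 11.5% of all genes with every CPT2H-KO library above every wild type library. No test set the 5 members apart from that background. Since whole tissue was sequenced, more cells of a type and more RNA per cell cannot be told apart. Markers of other cell types differed between the same groups. Fibroblast markers, 8 of 8 measured, summed to between 1092 and 2072 CPM in CPT2H-KO hearts and between 726 and 1145 CPM in wild type hearts, with 4 of 8 called higher and 0 lower. Those called were Col1a1, Col1a2, Col3a1 and Postn. Dcn, Lum, Pdgfra and Tcf21 were not called, with log2 fold changes between -0.05 and 0.27. Smooth muscle and pericyte markers, 7 of 7 measured, summed to between 385 and 453 CPM in CPT2H-KO hearts and between 516 and 604 CPM in wild type hearts, with no overlap and 2 of 7 called lower. Of 8 cardiomyocyte markers 4 were called lower (Tnni3 by a log2 fold change of -1.03, Mb by -0.54, Tnnt2 by -0.46 and Myl2 by -0.40) and 1, Actn2, higher, with a median of -0.36. Their part in the levels of the 5 members was not tested.

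Acacb, the carboxylase of the outer mitochondrial membrane, had 288, 248, 333, 307 and 249 CPM in the 5 CPT2H-KO hearts, against 193, 191, 199.8, 167 and 170 CPM in the 5 wild type hearts. The lowest CPT2H-KO heart stood clearly above the highest wild type heart. The log2 fold change was 0.63 (SE 0.10, adjusted p = 7.62e-04, edgeR quasi-likelihood test with Benjamini-Hochberg adjustment, higher in 5 of 5 hearts). It stayed called under all 21 alternatives, with a log2 fold change between 0.36 and 0.68.

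Acaca, the cytosolic carboxylase of fatty acid synthesis, had 15.0, 13.6, 11.9, 12.2 and 19.4 CPM in CPT2H-KO hearts, against 10.6, 20.03, 18.2, 14.3 and 13.0 CPM in wild type hearts. Both groups covered nearly the same range. The difference was -0.08 on the log2 scale (SE 0.18, 95% interval -0.48 to 0.33, edgeR adjusted p = 0.780). The highest Acaca values sat in the libraries with most transcripts of white adipocyte markers. Of 6 such markers 4 were in the table, and their summed level was 0.0395, 0.0496, 0.0407, 0.0813 and 9.78 CPM in CPT2H-KO hearts, against 2.35, 10.2, 10.2, 5.17 and 1.80 CPM in wild type hearts. Adipoq, which encodes adiponectin, was at 0 counts in 4 of 5 CPT2H-KO libraries and present in every wild type library. The sign of the Acaca difference was not stable. It was 0.36 with the adipocyte sum as a covariate, an alternative chosen after seeing the data (edgeR adjusted p = 0.165), 0.14 with the atrial covariate and 0.02 with the Y-linked covariate. Without wild type replicate 2 it was 0.05, without wild type replicate 3 it was -0.0017, and without CPT2H-KO replicate 5 it was -0.21. Y-linked markers summed to at most 0.308 CPM in wild type replicate 1 and CPT2H-KO replicates 1 and 3, against 82.1 CPM or more elsewhere. The part of the adipocyte transcripts in the Acaca levels was not tested further.

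**Figure D2:**
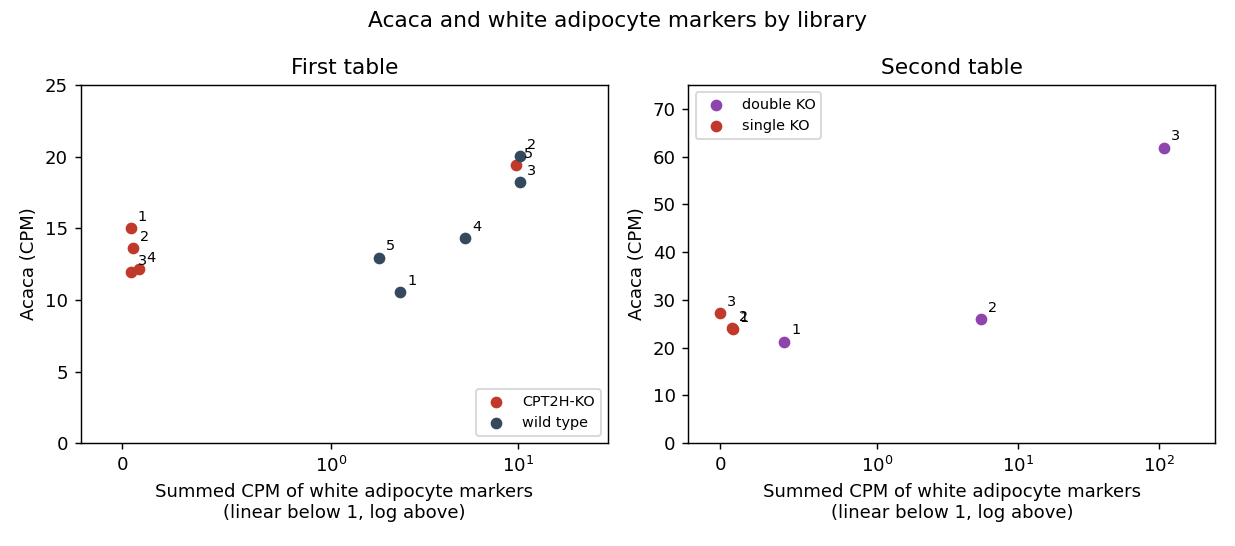
Acaca (CPM) against the summed CPM of white adipocyte markers, linear below 1 and logarithmic above, 1 numbered point per library. In the first table CPT2H-KO replicate 5 and wild type replicates 2 and 3 stand highest on both axes, and in the second table double KO replicate 3 does, at 61.9 CPM of Acaca and 108 CPM of markers.

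Mlycd, the decarboxylase that removes malonyl-CoA, had 52.8, 49.1, 57.9, 59.7 and 54.1 CPM in CPT2H-KO hearts, against 44.3, 41.5, 45.4, 38.9 and 32.8 CPM in wild type hearts. The groups did not overlap, though the gap between them was narrower than for Acacb. This is a log2 fold change of 0.43 (SE 0.09, edgeR adjusted p = 0.00540, higher in 5 of 5 hearts). Scaling by library totals alone ended this call, with a log2 fold change of 0.16 and an adjusted p of 0.245. That scaling moved the median of all genes by -0.26 on the log2 scale, and Mlycd lay 0.43 above the median of all genes under it, and 0.44 above it in the original scaling.

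Ucp3, the muscle uncoupling protein homologue, had 40.9, 36.3, 69.9, 68.1 and 35.7 CPM in CPT2H-KO hearts, against 20.2, 11.2, 21.1, 32.1 and 12.3 CPM in wild type hearts. CPT2H-KO replicates 3 and 4 stood well above the other 3, and wild type replicate 4 came close to the lowest CPT2H-KO heart. Ucp3 rose by 1.37 on the log2 scale (SE 0.31, 95% interval 0.70 to 2.04, edgeR adjusted p = 0.00621, higher in 5 of 5 hearts), the largest change of the 5 members. A pair of covariates ended the call without turning the direction. The atrial covariate, the mean log2 CPM of Myl7, Myl4 and Sln, gave a log2 fold change of 1.11 (edgeR adjusted p = 0.0752). With the white adipocyte markers as a covariate it was 1.11 (edgeR adjusted p = 0.107).

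Fast skeletal muscle, another tissue that expresses Ucp3, was followed by its markers, of which 1 of 4 tested was called, and lower. The 4 of 8 fast skeletal muscle markers present summed to between 3.91 and 16.6 CPM in CPT2H-KO hearts and between 10.7 and 24.8 CPM in wild type hearts, and the ranges overlapped. Its part in the Ucp3 difference was not tested. The atrial light chain gene Myl7 had 14.1, 0.496, 0.285, 0.610 and 144 CPM in CPT2H-KO hearts, against 194, 47.6, 82.8, 97.7 and 25.4 CPM in wild type hearts. Of 5 atrial markers tested 1 was called, Nppa, and higher, by 2.12 on the log2 scale (SE 0.62, edgeR adjusted p = 0.0229). The 5 together summed to 2668, 1145, 369, 369 and 1319 CPM in CPT2H-KO hearts, against 1188, 226, 319, 378 and 237 CPM in wild type hearts. Without CPT2H-KO replicates 1 and 5, which carry atrial light chain transcripts, the Ucp3 log2 fold change was 1.58 (edgeR adjusted p = 0.00563), another alternative chosen after seeing the data. CPT2H-KO replicate 2, at 1145 CPM in the atrial sum, was kept. The CPT2H-KO hearts left had at most 0.610 CPM of Myl7, while every wild type heart, at 25.4 CPM or more, was kept. Atrial light chain transcripts and genotype therefore cannot be told apart in that subset.

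Ucp2, the more widely expressed homologue, had 48.2, 33.0, 32.4, 32.7 and 49.9 CPM in CPT2H-KO hearts, against 33.1, 26.0, 27.3, 28.0 and 34.6 CPM in wild type hearts. CPT2H-KO replicates 1 and 5 stood apart, and the other 3 lay within the wild type range. Its log2 fold change was 0.40 (SE 0.15, 95% interval 0.07 to 0.72), and the edgeR adjusted p was 0.0576. The call moved with the processing. It passed with DESeq2 (adjusted p = 0.0276), with mitochondrially encoded genes removed (edgeR adjusted p = 0.0479), with the atrial covariate (log2 fold change 0.68, edgeR adjusted p = 0.00638) and without wild type replicate 5 or CPT2H-KO replicate 2, 3 or 4 (edgeR adjusted p between 0.0413 and 0.0472). Without CPT2H-KO replicates 1 and 5 the log2 fold change was 0.14 (edgeR adjusted p = 0.320). That omission was chosen after seeing the data and takes out the highest CPT2H-KO values of Ucp2. A smaller difference was therefore bound to follow. All 10 macrophage markers were measured, and their sum was between 122 and 214 CPM in CPT2H-KO hearts and between 167 and 211 CPM in wild type hearts, with 1 of 10, Cd163, called and lower. CPT2H-KO replicates 1 and 5, the highest in Ucp2, had macrophage sums of 122 and 157 CPM, and replicates 2, 3 and 4 had 190, 150 and 214 CPM. The part of macrophages in the Ucp2 levels was not tested.

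Ratios within a library do not depend on how libraries are scaled, and 3 were tested. Per kilobase of transcript, Acacb exceeded Acaca 20.8, 19.7, 30.2, 27.3 and 13.9 times in CPT2H-KO hearts, against 19.8, 10.3, 11.9, 12.7 and 14.2 times in wild type hearts. The groups overlapped through CPT2H-KO replicate 5 and wild type replicate 1. The mean log2 ratio was higher by 0.69 (two-sided exact permutation p = 0.0397, adjusted over 3 ratios 0.0635). The Acacb to Mlycd ratio, of transcripts and not of enzyme activity, was higher by only 0.19 (exact permutation p = 0.0476, adjusted 0.0635). The Ucp3 to Ucp2 ratio was higher by 1.04 (exact permutation p = 0.0635, adjusted 0.0635). The groups overlapped for each ratio, and the smallest p that 5 against 5 libraries allow is 0.00794. Without CPT2H-KO replicate 5 all 3 ratios passed, each with an adjusted exact permutation p of 0.0397, at differences of 0.84, 0.23 and 1.24. The Acacb to Mlycd ratio also passed without wild type replicate 5, at 0.23 (adjusted exact permutation p = 0.0476).

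**Figure D3:**
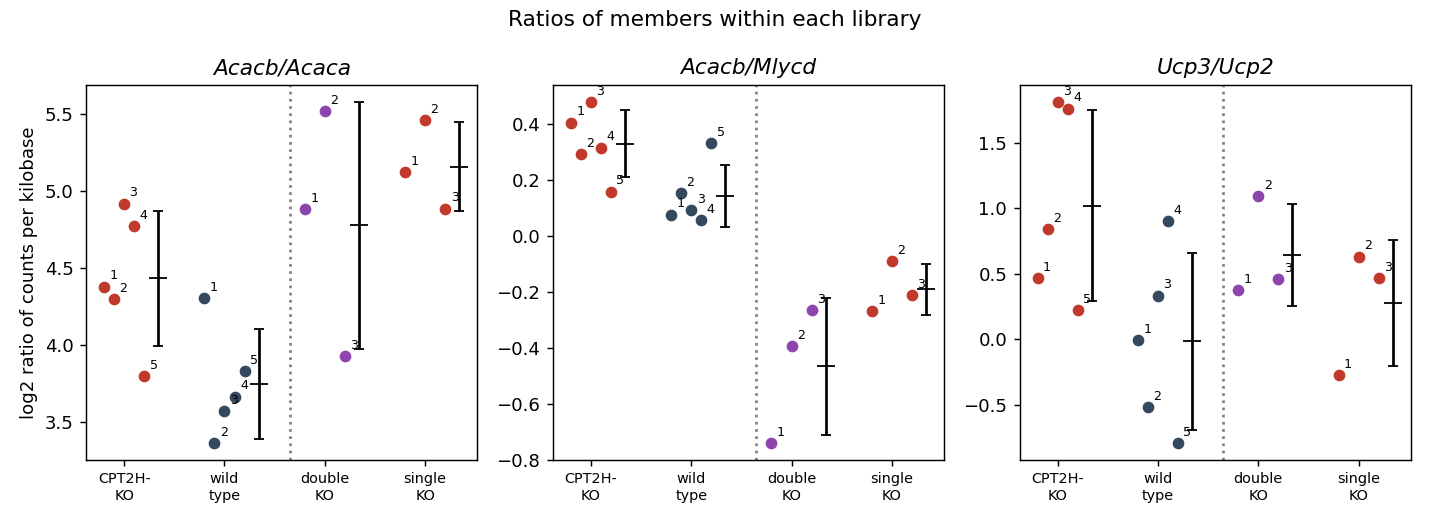
Log2 ratio of counts per kilobase between pairs of members within each library, 1 numbered point per library, with mean and SD. The dotted line separates the 2 tables, and CPT2H-KO replicates 3 and 4 give the highest Ucp3 to Ucp2 ratios of the first table.

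Levels of different genes were set side by side as CPM per kilobase of the longest principal transcript of each gene, in the first table. Acacb had 32.4 ± 4.2 CPM per kilobase in CPT2H-KO hearts and 21.0 ± 1.7 in wild type hearts (SD, n = 5 each). Mlycd followed with 25.7 ± 2.0 in CPT2H-KO hearts and 19.1 ± 2.4 in wild type hearts. Ucp3 had 20.5 ± 7.1 in CPT2H-KO hearts and 7.91 ± 3.44 in wild type hearts. In wild type hearts Ucp3 lay beside Ucp2, while in CPT2H-KO hearts every Ucp3 library, at 14.6 CPM per kilobase or more, exceeded every Ucp2 library, at 12.5 or less. That order rests on the transcript lengths used, 2448 bases for Ucp3 and 3988 bases for Ucp2. In CPM, not divided by length, both genes overlapped in CPT2H-KO hearts, at 35.7 to 69.9 for Ucp3 and 32.4 to 49.9 for Ucp2. Ucp2 had 9.84 ± 2.25 in CPT2H-KO hearts and 7.47 ± 0.95 in wild type hearts. Acaca was lowest, with 1.52 ± 0.32 in CPT2H-KO hearts and 1.60 ± 0.41 in wild type hearts. Acacb and Mlycd overlapped in wild type hearts, and their order rests on the transcript lengths used, 8788 and 2128 bases.

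Counts for the surrounding pathways are read against the shares of all genes, 33.7% called and 16.7% called higher. Among PPAR targets, genes that fatty acid-activated receptors are known to drive, 12 of 21 tested were higher and 1 lower, with a median log2 fold change of 0.41 against -0.01 over all genes. With scaling by library totals alone 7 were called higher, and under the other alternatives between 10 and 12. Pdk4, the kinase that shuts off pyruvate dehydrogenase, rose by 2.80 (SE 0.18, edgeR adjusted p = 4.59e-06), and Acot2, a mitochondrial acyl-CoA thioesterase, by 1.44 (SE 0.17, edgeR adjusted p = 1.59e-04). Cpt1b, the muscle carnitine palmitoyltransferase that malonyl-CoA inhibits, had counts higher by 0.56 (SE 0.08, edgeR adjusted p = 4.11e-04). They averaged only 9.86 CPM in CPT2H-KO hearts and 6.68 CPM in wild type hearts. The liver-type isoform Cpt1a averaged 61.9 and 30.8 CPM there. In the second table Cpt1b averaged 1441 CPM in double KO hearts and 1473 CPM in single KO hearts. The annotation has a same-strand readthrough gene, Gm44502, sharing 9459 bases with Cpt1b. The Cpt1b counts are therefore uncertain, and whether reads are missing from the first table was not tested. Cpt1b is among the 12 PPAR targets called higher.

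Of 8 carnitine shuttle genes, 2 were higher and 1 lower, with a median log2 fold change of 0.15. Those called higher include Cpt1b, whose counts are uncertain. The targeted gene itself, Cpt2, was lower by a log2 fold change of -0.95 (SE 0.15, edgeR adjusted p = 9.71e-04). Cpt1a, the liver-type isoform and also malonyl-CoA sensitive, rose by 1.01 (SE 0.36, edgeR adjusted p = 0.0480). Leaving out any library other than wild type replicate 2 ended the Cpt1a call, with edgeR adjusted p between 0.0612 and 0.0954.

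Of the regulators of the carboxylases, 2 of 14 were called higher and 4 lower, near the share of all genes, with a median log2 fold change of -0.02. Trib3, a pseudokinase described in mouse fat to direct ACC to degradation, rose by 2.76 (SE 0.47, edgeR adjusted p = 0.00146), at 5.47 ± 4.56 CPM in CPT2H-KO hearts and 0.807 ± 0.084 CPM in wild type hearts (SD, n = 5 each). Mid1ip1, whose product MIG12 promotes ACC polymerisation, fell by 1.60 on the log2 scale (SE 0.24, edgeR adjusted p = 7.51e-04). Fbxw7, the ubiquitin ligase subunit that recognises SREBP among its substrates, fell by 0.85 on the log2 scale (SE 0.09, edgeR adjusted p = 6.60e-05).

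Suppliers of acetyl-CoA and malonyl-CoA had 1 of 12 members higher and 3 lower, near the share of all genes, with a median log2 fold change of -0.12. Acss2, the cytosolic acetyl-CoA synthetase, fell by 0.39 on the log2 scale (SE 0.07, edgeR adjusted p = 0.00144) and Acss3, a mitochondrial short-chain acyl-CoA synthetase, fell by 1.73 (SE 0.42, edgeR adjusted p = 0.00886). Acss3 was faint, at 0.313 ± 0.231 CPM in CPT2H-KO hearts and 1.09 ± 0.12 CPM in wild type hearts (SD, n = 5 each). Acsf3, the mitochondrial malonyl-CoA synthetase, rose by 0.30 (SE 0.10, edgeR adjusted p = 0.0411), a call lost without any one of wild type replicates 1, 2, 4 and 5 or CPT2H-KO replicates 3 and 4 (edgeR adjusted p between 0.0654 and 0.0956). The remaining biotin-dependent carboxylases and biotin-handling genes had 0 of 7 members higher and 2 lower. Those were Mccc2, a subunit of methylcrotonyl-CoA carboxylase, at -0.64 (SE 0.11, edgeR adjusted p = 0.00158), and the biotin-recycling enzyme Btd, at -0.35 (SE 0.11, edgeR adjusted p = 0.0309). Leaving out any one of wild type replicates 1 to 4 ended the Btd call (edgeR adjusted p between 0.0593 and 0.0786).

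Fatty acid synthesis genes, which use malonyl-CoA, had 3 of 13 members higher and 1 lower, with a median log2 fold change of -0.12. Me1, the cytosolic malic enzyme that makes NADPH, rose by 1.19 (SE 0.08, edgeR adjusted p = 8.23e-06), and the desaturase gene Scd2 by 1.08 (SE 0.26, edgeR adjusted p = 0.00983). Mlx, the partner of the glucose-responsive factor ChREBP, fell by 0.44 on the log2 scale (SE 0.10, edgeR adjusted p = 0.00691). Fasn, the synthase that consumes malonyl-CoA, was highest in the adipocyte-rich libraries, with 20.7, 18.7, 20.2, 17.4 and 45.2 CPM in CPT2H-KO hearts, against 23.3, 62.1, 56.2, 37.0 and 27.1 CPM in wild type hearts.

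Carriers related to the uncoupling proteins had 2 of 6 tested members higher and 0 lower, near the share of all genes called. Slc25a5, an ADP/ATP carrier, rose by 0.37 (SE 0.09, edgeR adjusted p = 0.0111) and Slc25a42, the mitochondrial coenzyme A carrier, by 0.63 (SE 0.20, edgeR adjusted p = 0.0315). The Slc25a42 call was lost without any one of wild type replicates 2 to 5 or CPT2H-KO replicates 3 and 4 (edgeR adjusted p between 0.0554 and 0.0723). Ucp1 itself was at 0, 1, 1, 3 and 78 counts in CPT2H-KO libraries, against 5, 219, 136, 1 and 0 counts in wild type libraries, and it was highest in the adipocyte-rich ones.

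Among receptors and coregulators of the PPAR and ERR families, 5 of 14 were higher and 2 lower, with a median log2 fold change of 0.11. Esrrg, a receptor of cardiac oxidative genes, rose by 0.40 (SE 0.08, edgeR adjusted p = 0.00402). The PPAR partner receptors Rxra and Rxrg fell by 0.35 on the log2 scale (SE 0.08, edgeR adjusted p = 0.00718) and by 0.64 (SE 0.15, edgeR adjusted p = 0.00893). With scaling by library totals alone, Acsf3, Cpt1b, Cpt1a, Slc25a5, Slc25a42 and Esrrg lost their calls and kept their direction. The atrial covariate ended the calls of Acss3, Acsf3, Btd, Scd2, Cpt1a, Slc25a42 and Esrrg, and the adipocyte covariate those of Acss3, Acsf3, Btd, Mlx, Scd2, Cpt1a, Slc25a5, Slc25a42, Rxra and Rxrg, with no change of direction. The Y-linked covariate ended those of Acsf3, Cpt1a and Slc25a42.

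**Figure D4:**
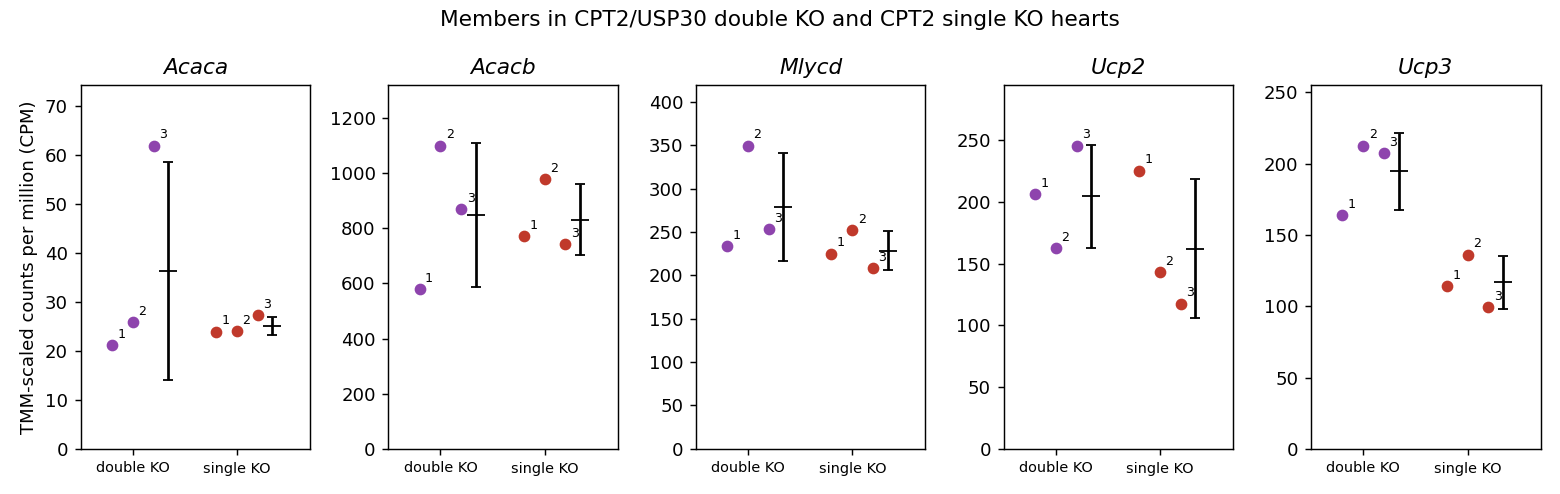
CPM (TMM-scaled, axes starting at 0) of the 5 genes in CPT2/USP30 double KO and CPT2 single KO hearts, 1 numbered point per library, with mean and SD (n = 3 each). Only for Ucp3 do all double KO points lie above all single KO points, and Acaca stands at 61.9 CPM in double KO replicate 3.

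No member passed the threshold between double KO and single KO hearts, and Ucp3 came nearest. The edgeR test called 0 of the 12997 genes tested, 0%, while 942 of them, 7.25%, had an unadjusted p under 0.05. DESeq2 called 113 genes and limma-voom 0. Of the members, 1 of 5, Ucp3, had an unadjusted p under 0.05, and the same gene alone had every double KO library above every single KO library, against 6.69% of all genes. The targeted gene Usp30, with a log2 fold change of -1.16, had an edgeR adjusted p of 0.147.

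Ucp3 had 164, 213 and 207 CPM in double KO hearts, against 114, 136 and 99.7 CPM in single KO hearts. The lowest double KO heart lay above the highest single KO heart. The log2 fold change was 0.74 (SE 0.17, 95% interval 0.35 to 1.12, higher in 3 of 3 hearts), with an unadjusted edgeR p of 0.00176, 75th of all genes by p, and an adjusted p of 0.306. DESeq2 called it (log2 fold change 0.72, adjusted p = 0.0153), as did edgeR without double KO replicate 1 (0.85, adjusted p = 0.0383).

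Markers of other muscle types were compared too, and 0 of 4 fast skeletal muscle and 0 of 3 atrial markers tested were called. Of 8 fast skeletal muscle markers 7 were listed, with sums of 35.6, 21.6 and 53.2 CPM in double KO hearts, against 14.4, 9.22 and 6.99 CPM in single KO hearts. Most of this was Myl1, at 30.6 ± 16.1 CPM in double KO hearts and 6.78 ± 2.57 CPM in single KO hearts (SD, n = 3 each). Myl7 had 1.48, 102 and 424 CPM in double KO hearts, against 0.0813, 0.0756 and 0.460 CPM in single KO hearts. Nppa overlapped, at 886 to 7450 CPM in double KO hearts and 1186 to 2740 CPM in single KO hearts. All 5 atrial markers summed to 7366, 1267 and 4262 CPM in double KO hearts, against 1189, 2753 and 2752 CPM in single KO hearts. Transcripts of the Y-linked markers were at background in all 3 double KO libraries and in single KO replicate 3, with sums of at most 0.908 CPM, and at 124 and 118 CPM in single KO replicates 1 and 2. The Ucp3 log2 fold change was 0.48 with the atrial covariate (edgeR adjusted p = 0.250) and 0.99 with the Y-linked covariate (edgeR adjusted p = 0.707). Only single KO replicate 3 resembled the double KO libraries in Y-linked transcripts. The Y-linked fit therefore leans on that library, and these transcripts and genotype can hardly be told apart. The part of skeletal muscle transcripts in the Ucp3 difference was not tested.

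Ucp2 had 206, 162 and 246 CPM in double KO hearts, against 225, 143 and 118 CPM in single KO hearts, and the groups overlapped. Double KO minus single KO was 0.34 on the log2 scale (SE 0.25, 95% interval -0.22 to 0.90, edgeR adjusted p = 0.849). Macrophage markers summed to 545, 362 and 367 CPM in double KO hearts, against 442, 283 and 230 CPM in single KO hearts, with 0 of 10 called. Within the single KO group the order of Ucp2 followed that of the macrophage sum, and within the double KO group it did not. The part of macrophages in these levels was not tested.

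Mlycd had 234, 350 and 254 CPM in double KO hearts, against 225, 252 and 208 CPM in single KO hearts, overlapping in range. They differed by 0.29 on the log2 scale (SE 0.18, 95% interval -0.12 to 0.70, edgeR adjusted p = 0.807). Acacb had 579, 1100 and 870.0 CPM in double KO hearts, against 771, 979 and 743 CPM in single KO hearts. The double KO hearts spread to both sides of the single KO range. Acacb differed by 0.03 on the log2 scale (SE 0.23, 95% interval -0.49 to 0.56, edgeR adjusted p = 0.989).

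Acaca had 21.2, 25.9 and 61.9 CPM in double KO hearts, against 23.9, 24.0 and 27.2 CPM in single KO hearts. Only double KO replicate 3 left the range near 25 CPM. For Acaca the log2 difference was 0.54 (SE 0.34, 95% interval -0.24 to 1.31, edgeR adjusted p = 0.807), and it was -0.10 without that library. White adipocyte markers, all 6 of them listed, summed to 0.410, 5.45 and 108 CPM in double KO hearts, against 0.0813, 0.0756 and 0 CPM in single KO hearts. Fasn had 41.8, 65.1 and 348 CPM in double KO hearts, against 52.6, 55.6 and 38.5 CPM in single KO hearts. The 3 highest sums were all in the double KO group, so fat content and genotype cannot be told apart there.

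Within libraries the 3 ratios overlapped between the groups of the second table, and 3 against 3 libraries cannot give an exact permutation p below 0.1. The mean log2 ratio of double KO minus single KO hearts was -0.38 for Acacb to Acaca (exact permutation p = 0.6), -0.28 for Acacb to Mlycd (exact permutation p = 0.2) and 0.37 for Ucp3 to Ucp2 (exact permutation p = 0.6), each with an adjusted p of 0.6. Per kilobase, Mlycd had 131 ± 29 CPM in double KO hearts and 107 ± 10 CPM in single KO hearts (SD, n = 3 each). Acacb followed with 96.7 ± 29.7 and Ucp3 with 79.5 ± 10.9 in double KO hearts, against 94.5 ± 14.7 for Acacb and 47.7 ± 7.5 for Ucp3 in single KO hearts. Mlycd and Acacb overlapped in both groups, and Acaca was again lowest, with 3.82 ± 2.34 in double KO hearts and 2.63 ± 0.20 in single KO hearts.

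**Figure D5:**
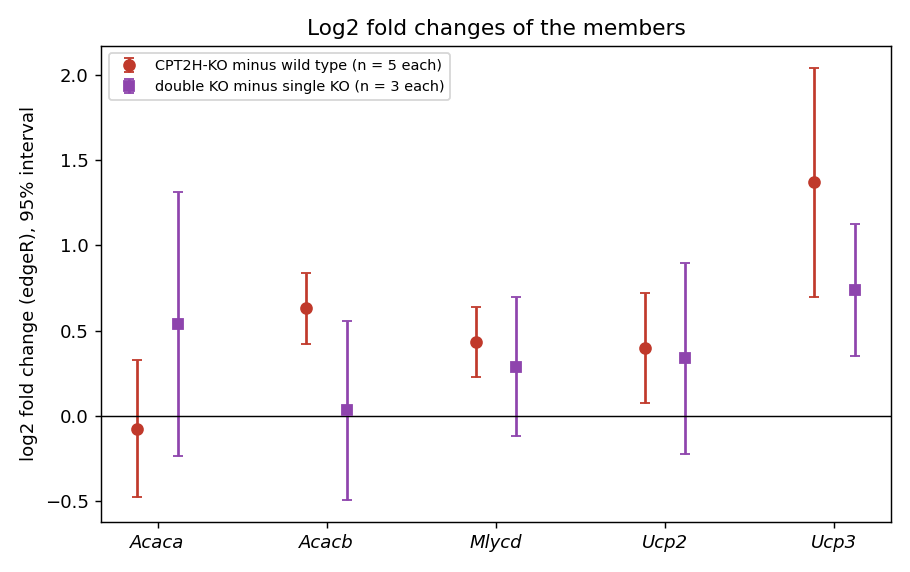
Log2 fold change of each member with its 95% interval from edgeR, CPT2H-KO minus wild type (circles, n = 5 each) and double KO minus single KO (squares, n = 3 each). The intervals of Acacb, Mlycd, Ucp2 and Ucp3 lie above 0 in the first comparison and only that of Ucp3 does in the second, before adjustment for the number of genes.

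An unadjusted p under 0.05 was reached by 7.25% of all genes tested in the second comparison. The pathway lists held 0 called genes there. At an unadjusted p under 0.05 they held 1 of 11 acetyl-CoA and malonyl-CoA suppliers, 1 of 14 carboxylase regulators, 3 of 13 fatty acid synthesis genes, 1 of 21 PPAR targets and 0 genes of the remaining lists. Named after their values were seen, these were Slc25a1, the citrate carrier, at 0.73 (SE 0.25), Thrsp, whose product Spot14 pairs with MIG12, at 0.68 (SE 0.20), Fasn at 1.64 (SE 0.65), Scd1 at 3.05 (SE 1.15), Elovl6 at 1.39 (SE 0.60) and Angptl4 at 0.83 (SE 0.32), with edgeR adjusted p between 0.406 and 0.671. Double KO hearts spread widely for the fatty acid synthesis genes, with Scd1 between 11.9 and 344 CPM in double KO hearts and between 10.1 and 24.5 CPM in single KO hearts, and Elovl6 between 1.74 and 8.02 CPM in double KO hearts and between 1.12 and 1.87 CPM in single KO hearts. The highest double KO value of both genes was that of replicate 3. Median log2 fold changes of the 8 lists lay between -0.02 and 0.15.

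The genes most like each member over the 10 libraries of the first table, among 10127 genes compared, differed in whether the likeness recurred over the 6 libraries of the second. Acaca was most like the citrate carrier gene Slc25a1 (Pearson r = 0.95, and 0.67 in the second table), followed by Fsd1l and Map2k4 (0.91 and 0.90, and -0.20 and 0.34 in the second table). Acacb was most like Ythdf1, Fam120c and Zmynd19 (each 0.98, and 0.43, 0.65 and 0.78 in the second table). Mlycd was most like Lamtor1, Bdnf and Ddx28 (0.96, 0.95 and 0.95, and 0.50, 0.08 and 0.42 in the second table). Ucp2 was most like Pdpk1, Tmem200b and Map3k6 (0.96, 0.95 and 0.93, and -0.58, 0.11 and 0.49 in the second table). Ucp3 was most like Ap3d1, Mrpl19 and Adam19 (each 0.97, and 0.28, -0.77 and 0.19 in the second table). These are the highest of many values over libraries that share their genotype difference and their scaling, and they describe likeness only.

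Reads of some members could be shared with other annotated genes, since the strand setting of the counting is not given. Ucp3 overlaps the antisense gene Gm10603 over 1857 bases, which held 798 counts in all over the first table. Ucp2 ends 305 bases inside Dnajb13 on the opposite strand, which held 5 counts in all over the second table. Genes annotated within Acaca and Acacb were not used here. Cardiomyocyte markers, 8 of 8 measured, summed to between 47781 and 56023 CPM in CPT2H-KO hearts and between 51771 and 58964 CPM in wild type hearts, and to between 74081 and 105614 CPM in double KO hearts and between 73604 and 80986 CPM in single KO hearts. Library totals lay between 54674422 and 132762776 counts in the first table and between 11067969 and 13532716 counts in the second, and mitochondrially encoded genes took 61.9% to 68.8% of CPT2H-KO counts and 57.9% to 63% of wild type counts.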

How the data were processed

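Total RNA was sequenced from 16 mouse hearts, grouped by their titles. The submitters' processing notes name bcl2fastq, HISAT2, DESeq2 1.42.0 and the genome build mm10. How reads were assigned to genes and strands is not given in the sources. The authors deposited raw read counts per gene in 2 tables, which differ in gene set and depth, so groups were compared only within a table. The first table lists no gene with a total under 151 counts, so fainter genes were not analysed here, and the second lists no mitochondrially encoded genes. An unnamed row of the second table was not used.

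From these deposited counts, genes were filtered with filterByExpr, libraries scaled by TMM, and groups compared with the quasi-likelihood F test of edgeR 4.0.16 in R 4.3.3 over all genes of a table, with Benjamini-Hochberg adjustment and a threshold of 0.05. The SE was obtained from the fold change and the root of its F statistic. Ratios of members were tested by exact two-sided permutation over libraries after adding 0.5 to each count. The fits and the permutation test were tested on simulated data. Libraries of a group were checked for duplicates, with a lowest chi-square of 10.7 per degree of freedom between any pair.

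Alternatives covered scaling, the filter, DESeq2 1.42.0, limma-voom (limma 3.58.1), a replicate block, atrial, Y-linked and white adipocyte covariates, and leaving out libraries. The adipocyte covariate and the removal of CPT2H-KO replicates 1 and 5 were chosen after seeing the data. The members, the gene lists and the tests were chosen with earlier results of these data known. Named are the 5 members, Cpt2 and Usp30, up to 3 called genes with the smallest p from each pathway list in CPT2H-KO against wild type, the 3 genes most like each member among genes averaging 1 or more in log2 CPM, and overlapping genes. Genes outside this rule (Fasn, Ucp1, Scd1, Elovl6, Thrsp, Angptl4, Myl7, Nppa, Adipoq, other cell type markers and those under other observations) were named after their values were seen.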

Additional observations from a re-analysis of the deposited data

Results flagged for a closer look

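A pair of marker sums stood apart from their own group, by the gap to the nearest library over the range of the group; chance flags about 1 in 20 groups of 5, and 2 of 22 such groups were flagged. White adipocyte markers summed to 9.78 CPM in CPT2H-KO replicate 5, while the other 4 CPT2H-KO libraries had at most 0.0813 CPM. The same library had the highest Acaca of its group, 19.4 CPM, and the lowest Acacb to Acaca ratio. Atrial markers, here Myl7, Myl4, Sln, Nppa and Bmp10, summed to 1188 CPM in wild type replicate 1, against at most 378 CPM in the other wild type libraries. That library had the lowest Acaca of its group, 10.6 CPM. Their part in the member levels was not tested beyond the covariates and omissions given here.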

How the results depend on the processing

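Acacb kept its call in CPT2H-KO hearts under all 21 alternatives. Under the atrial covariate 3113 genes were called in that comparison and under the white adipocyte covariate 1735, against 4758; scaling by library totals gave 827 higher and 4832 lower against 2360 higher and 2398 lower. In that comparison Mlycd was 0.16 and not called under library totals. Ucp2 was called at 0.41 without mitochondrially encoded genes, at 0.41 with DESeq2 and at 0.68 with the atrial covariate, and ranged between 0.30 and 0.46 over single omissions. Ucp3 was 1.11 and not called under each of the atrial and adipocyte covariates. Acaca turned to 0.14, 0.021 and 0.36 under the atrial, Y-linked and adipocyte covariates, and ranged between -0.21 and 0.047 over single omissions. Ratios over single omissions ranged between 0.56 and 0.84 for Acacb to Acaca, 0.15 and 0.23 for Acacb to Mlycd, and 0.84 and 1.27 for Ucp3 to Ucp2.

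In double against single KO hearts 113 genes were called with DESeq2, 221 with the atrial covariate and between 0 and 114 over single omissions (4 without single KO replicate 3, 114 without double KO replicate 1). Ucp3 was called with DESeq2 at 0.72 and ranged between 0.62 and 0.86 over single omissions. Acaca turned to -0.63 and -0.52 under the atrial and adipocyte covariates and ranged between -0.10 and 0.81 over single omissions. Acacb turned to -0.00489 with limma-voom, and to -0.54 and -0.25 under those covariates, and ranged between -0.20 and 0.24 over single omissions. The Acacb to Acaca ratio ranged between -0.75 and 0.044 over single omissions. The cause of these changes was not tested.

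With the replicate number as a block, Ucp2 was called in CPT2H-KO hearts (0.38, edgeR adjusted p = 0.0115), Btd and Slc25a42 lost their calls there (edgeR adjusted p = 0.0775 and 0.0650), 1 gene was called in double against single KO hearts, and Acacb turned to -0.00507 there. Under that block Ucp3 kept its call in CPT2H-KO hearts, at 1.41 (SE 0.13, edgeR adjusted p = 5.59e-04). Same-numbered libraries correlated at 0.115, 0.069, 0.095, 0.226 and -0.090 in the first table and 0.074, -0.203 and 0.162 in the second. Differently numbered libraries correlated between -0.184 and 0.219 in the first table and between -0.276 and 0.237 in the second. These correlations cannot decide whether the numbers pair the samples, and the labels do not say. Blocked ratios gave adjusted exact p of 0.188 in the first table, where 5 pairs limit them. Mitochondrially encoded genes could not be left out of the second table, which lists none.

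The second table has lower library totals and 3 libraries a group; the SE of Ucp3 was 0.17 there, against 0.31 in the first table, and what limits its calls was not tested.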

Other observations

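Subunits of AMPK, the kinase that phosphorylates and inhibits both acetyl-CoA carboxylases, were called in both directions in CPT2H-KO hearts, named after their values were seen. They belong to the carboxylase regulators above, whose calls were near the share of all genes. The beta subunit gene Prkab2 rose to 37.6 ± 12.4 CPM in CPT2H-KO hearts, against 23.4 ± 3.6 CPM in wild type hearts (SD, n = 5 each), a log2 fold change of 0.68 (edgeR adjusted p = 0.0177). Its groups overlapped, at 27.9 to 59.0 CPM in CPT2H-KO hearts and 20.3 to 29.0 CPM in wild type hearts. The gamma subunit gene Prkag1 fell to 27.6 ± 1.8 CPM in CPT2H-KO hearts, against 34.9 ± 3.1 CPM in wild type hearts, a log2 fold change of -0.34 (edgeR adjusted p = 0.00639). The catalytic subunit gene Prkaa1 had a log2 fold change of -0.26 (edgeR adjusted p = 0.0133) and Prkaa2, the more abundant by counts, one of 0.04 (edgeR adjusted p = 0.622). Prkab1, Prkag2 and Prkag3 were not called, at -0.33, 0.38 and 0.07 (edgeR adjusted p = 0.0577, 0.190 and 0.822).

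Of 5 genes listed as brown adipocyte markers 2 were tested, Cidea and Dio2, and both rose in CPT2H-KO hearts. Ucp1 did not pass the filter on low counts, and Elovl3 and Zic1 were absent from the first table. Cidea, a lipid droplet protein also expressed in mouse heart, had 14.05 ± 3.23 CPM in CPT2H-KO hearts and 8.48 ± 1.06 CPM in wild type hearts (SD, n = 5 each), a log2 fold change of 0.73 (edgeR adjusted p = 0.00325). Dio2, the deiodinase that activates thyroid hormone, had 8.62 ± 7.61 CPM in CPT2H-KO hearts and 1.76 ± 0.35 CPM in wild type hearts, a log2 fold change of 2.28 (edgeR adjusted p = 0.00849).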
